A study of Rattus norvegicus with 18 samples.

Results

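The genes described here are Fos, Fosb, Fosl1, Jun and Junb, which encode subunits of the transcription factor AP-1, and Atf3, a stress-induced factor that pairs with Jun proteins. They were taken by symbol from the annotation of a rat Affymetrix array, which named 14218 genes by probe sets with 1 symbol, and all 6 of the 6 genes were found. Where a gene had several probe sets, the one with the highest mean over the 18 arrays was used and the others served as a check. The 6 genes had 9 probe sets in all, and every gene passed the filter on low values that left 9149 genes for testing. Fosb passed it only through its treated arrays. Fosl1 also needed its treated arrays to pass, with 1 DMSO array above log2 4, at 6 h, where the filter asks for 3 arrays.

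All arrays came from NRK-52E, an established rat kidney cell line that the labels describe as proximal tubule epithelium of an Osborne-Mendel rat. Confluent cultures received 1.1 µM chlorothalonil, a thiol-reactive chlorinated nitrile used as a fungicide and known as a kidney toxicant in rats, in 0.1% DMSO, or 0.1% DMSO alone. The dose was the concentration that inhibited the cells by 10% at 72 h, per the labels. RNA was taken after 6, 24 and 72 h, with 3 arrays for each of the 6 combinations of treatment and time, which the labels call biological replicates from separate studies. Of 13 markers of proximal tubule epithelium, 10 lay at or below log2 4 on every array, including Lrp2, Cubn, Slc34a1 and Cdh1, and only the keratin gene Krt8 lay above it on all. Of 7 fibroblast markers, 2 lay above log2 4 on all arrays, Col1a1 and Col3a1, and 3 lay at or below it on all, Pdgfra, Thy1 and Dcn. Markers of distal nephron (5 of 5), endothelium (3 of 4) and leukocytes (3 of 4) lay at or below it on every array. The array therefore did not show the proximal tubule label in the cells' defining markers, and the cells are called here by the name of the line.

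AP-1 is a dimer of proteins with a basic region and a leucine zipper. Fos proteins cannot pair with each other and bind DNA only with a Jun protein, whereas Jun proteins can also form homodimers; the dimers bind the element TGACTCA. Fos, Fosb and Junb are immediate early genes, whose transcripts appear within minutes of a growth factor or stress signal and usually decay soon after, and Fosl1 follows later. Jun is phosphorylated by the stress kinases of the JNK family and acts on its own promoter. Atf3 belongs to the ATF and CREB factors, which bind the related element TGACGTCA; it is induced by many stresses, and its homodimer represses transcription.

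All 6 genes were higher in chlorothalonil than in DMSO cultures at 6 h and at 24 h, and at 72 h Fosb, Fosl1, Jun and Atf3 were higher while Fos and Junb were lower. At 6 h Atf3 was 75.1-fold and Fos 18.5-fold higher, and Fosb and Fosl1 rose from DMSO levels at or near background. The tests were made with limma on the deposited log2 values, with adjustment by the Benjamini-Hochberg method over all 9149 genes and a threshold of 0.05 for the adjusted p. Differences between the arms were widespread on these arrays: 27.8% of all tested genes were called higher and 31.8% lower at 6 h, 39.1% higher and 31.1% lower at 24 h, and 37.2% higher and 27% lower at 72 h. The treated arrays all lay above the DMSO arrays for 6 of the 6 genes at 6 h (32.1% of all tested genes), for 6 at 24 h (40.4%) and for 4 at 72 h (40.1%), and all lay below for 2 at 72 h (30.5%). Fosb and Fosl1 count among the higher genes at each time. Both needed their treated arrays to pass the filter, so their place in these counts is no separate support. Because RNA was taken from whole cultures, more transcript per cell and more cells with the transcript cannot be told apart.

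The levels rest on the normalisation of the deposited values, and the poly-A controls of the array, which are bacterial transcripts added to each RNA sample, were not level between the arms. Their mean over 27 probe sets was 9.58 to 10.23 on the 9 chlorothalonil arrays and 8.26 to 9.44 on the 9 DMSO arrays, so every treated array lay above every DMSO array. With each array scaled to these controls, the median difference of all genes was -0.56 at 6 h (-0.01 as deposited), -0.89 at 24 h (0.06) and -0.53 at 72 h (0.07). On that scale 266 genes were called higher and 3489 lower at 6 h, against 2544 and 2907 on the deposited scale, with 358 and 5860 against 3575 and 2843 at 24 h and 388 and 3360 against 3408 and 2473 at 72 h. All 6 genes stayed higher and past the threshold at 6 h. At 24 h the difference of Fos became -0.03 and that of Junb -0.53, and at 72 h that of Jun was 0.52 with an adjusted p of 0.151 (limma). Values below are on the deposited scale unless the poly-A scale is named, and its part in the results was not otherwise tested.

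**Figure D1:**
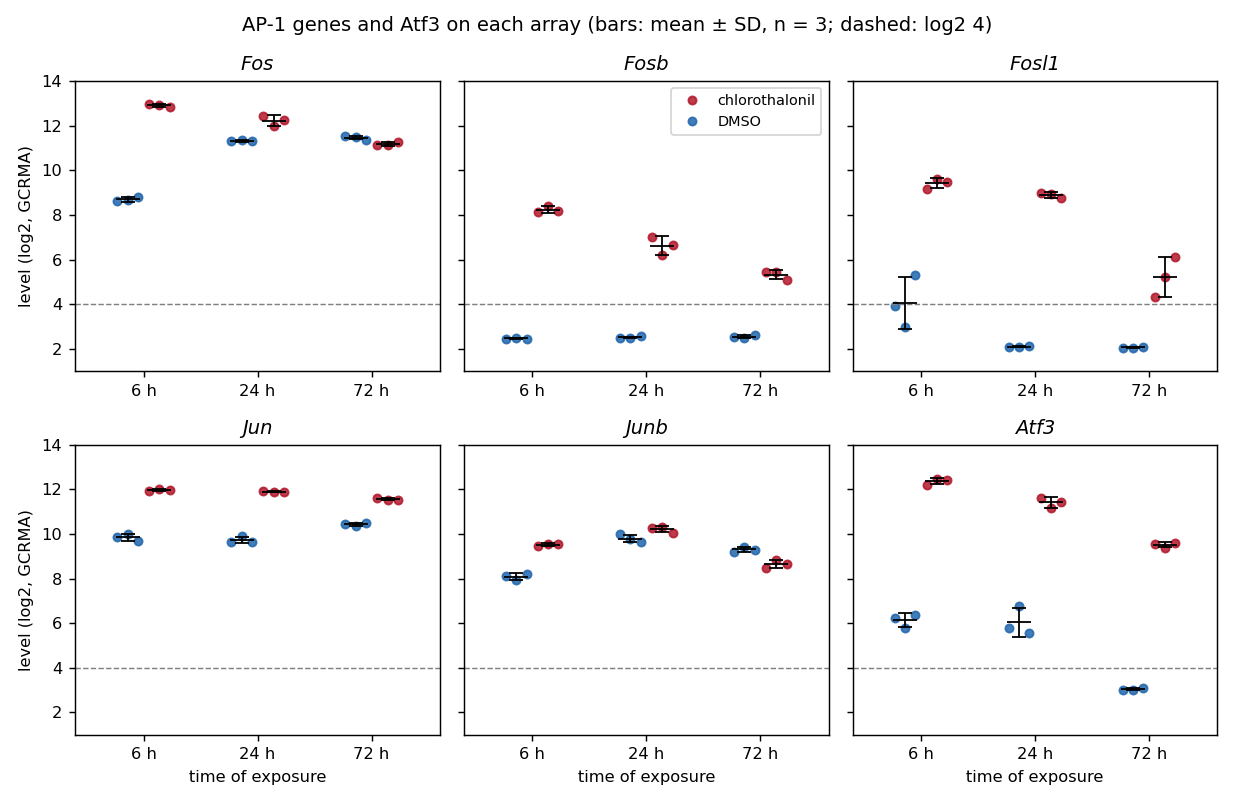
Log2 level of each gene on each of the 18 arrays by time of exposure (points; bars give mean ± SD, n = 3; the dashed line is log2 4, the floor of the filter). Fosb stands below the line in all DMSO arrays, Atf3 falls below it in DMSO at 72 h, and Fos and Junb in DMSO cultures stand higher at 24 h than at 6 h.

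Fos, the founding Fos subunit, was high at 6 h in treated cultures and rose in the DMSO cultures as well between 6 and 24 h. Its log2 level was 12.96, 12.91 and 12.84 on the chlorothalonil arrays and 8.63, 8.65 and 8.80 on the DMSO arrays at 6 h. At 24 h the treated arrays read 12.45, 11.97 and 12.27 and the DMSO arrays 11.30, 11.34 and 11.29, and at 72 h they read 11.15, 11.12 and 11.27 against 11.53, 11.48 and 11.38. The arms did not overlap at any time, and their order was turned at 72 h. The difference was 4.21 ± 0.10 (SE) at 6 h (18.5-fold, adjusted p = 4.13e-13), 0.92 at 24 h (1.89-fold, adjusted p = 5.42e-07) and -0.28 at 72 h (1.21-fold lower, adjusted p = 0.0185). The call at 72 h was lost without replicate 2 of the treated group (adjusted p = 0.0625) or without replicate 1 of the DMSO group (0.065), and the difference at 24 h was -0.03 on the poly-A scale. In DMSO cultures Fos was 6.14-fold higher at 24 h than at 6 h (log2 difference 2.62, 95% interval 2.41 to 2.82), so the smaller difference at 24 h came with a higher DMSO level as well as a treated level lower by 0.67. The 5 groups other than DMSO at 6 h lay between 11.18 and 12.90 on average. Among them DMSO at 72 h, DMSO at 24 h and chlorothalonil at 72 h, which follow each other in that order, did not pass the test between neighbours (adjusted p of 0.185 and 0.255). A second Fos probe set read 2.04 to 2.17 on every array, below the filter, and gave no information on these differences.

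Fosb, a Fos subunit that shares the immediate early response of Fos, was found in treated cultures and in no DMSO array. Its log2 level at 6 h was 8.13, 8.41 and 8.16 with chlorothalonil, and it was 7.03, 6.21 and 6.65 at 24 h and 5.43, 5.46 and 5.09 at 72 h. All 9 DMSO arrays lay between 2.45 and 2.63, under the filter floor of log2 4, so a fold is given as a bound: the treated mean against that floor. Fosb was at least 18.9-fold higher at 6 h, at least 6.19-fold at 24 h and at least 2.50-fold at 72 h (fitted log2 differences 5.77, 4.11 and 2.78; adjusted p of 1.87e-12, 9.37e-12 and 1.01e-09). The treated level fell at each step, by 1.61 from 6 to 24 h (3.05-fold, adjusted p = 4.51e-07) and by 1.31 from 24 to 72 h (2.47-fold, adjusted p = 1.75e-06), and no 2 treated groups overlapped.

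Fosl1, which encodes the Fos subunit Fra-1, was high in treated cultures at 6 and 24 h and lower at 72 h. The treated arrays read 9.16, 9.61 and 9.49 at 6 h, 8.99, 8.94 and 8.74 at 24 h, and 4.33, 5.20 and 6.13 at 72 h. The DMSO arrays at 6 h read 3.90, 2.96 and 5.30, with 1 of 3 above log2 4, and those at 24 and 72 h lay between 2.05 and 2.11. The treated arrays were above all DMSO arrays of their time, but at 72 h the lowest treated array lay below the highest DMSO array of 6 h. The difference was 5.37 ± 0.45 (SE) at 6 h (adjusted p = 1.37e-07), 4.82 without DMSO replicate 2 and 5.99 without DMSO replicate 3 of that time. It was at least 29.7-fold higher at 24 h and at least 2.33-fold at 72 h (fitted differences 6.81 and 3.16, the latter between 2.70 and 3.60 without treated replicate 3 or 1; adjusted p of 4.2e-09 and 2.24e-05). The treated level at 24 h was below that at 6 h by 0.53 without passing the test (95% interval -1.50 to 0.44, adjusted p = 0.334), and between 24 and 72 h it fell by 3.67 (12.8-fold, adjusted p = 3.28e-06). Replicates of Fosl1 were the most spread among the 6 genes, with an SD of 1.18 in DMSO cultures at 6 h and 0.90 in treated cultures at 72 h.

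Jun, the subunit that can pair with itself, was higher in treated cultures at all 3 times. Its treated arrays read 11.91, 12.01 and 11.99 at 6 h, 11.91, 11.88 and 11.90 at 24 h, and 11.60, 11.54 and 11.52 at 72 h. Its DMSO arrays read 9.87, 9.98 and 9.68 at 6 h, 9.66, 9.90 and 9.65 at 24 h, and 10.46, 10.34 and 10.49 at 72 h. The treated arrays of all times lay above the DMSO arrays of all times. The difference was 2.13 at 6 h (4.37-fold), 2.16 at 24 h (4.48-fold) and 1.12 at 72 h (2.18-fold), with adjusted p of 3.56e-11, 9.37e-12 and 1.5e-08. Treated cultures at 6 and 24 h overlapped and differed by 0.07 (adjusted p = 0.458), as did DMSO cultures at 6 and 24 h, by 0.11 (adjusted p = 0.238). From 24 to 72 h the level rose by 0.70 in DMSO cultures (adjusted p = 2.85e-06) and fell by 0.34 in treated ones (adjusted p = 0.00128).

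Jun had 3 probe sets, and all were higher in treated cultures at every time. The second gave 2.71, 1.79 and 0.93 at 6, 24 and 72 h and the third 2.14, 2.20 and 1.35. On the second probe set the difference became smaller from 6 to 24 h (-0.92, adjusted p = 0.000252, limma), which the brightest one did not show. The second probe set differed from the others in its course within treated cultures: its mean was 10.79 at 6 h, 9.63 at 24 h and 9.78 at 72 h, so that it fell by 1.15 from 6 to 24 h, where the brightest probe set moved by 0.07, and read 0.15 higher at 72 than at 24 h (adjusted p = 0.282), where the brightest one fell. The 3 probe sets therefore shared the sign of the difference from DMSO. Its course with time was alike on the brightest and the third probe set, and different on the second.

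**Figure D2:**
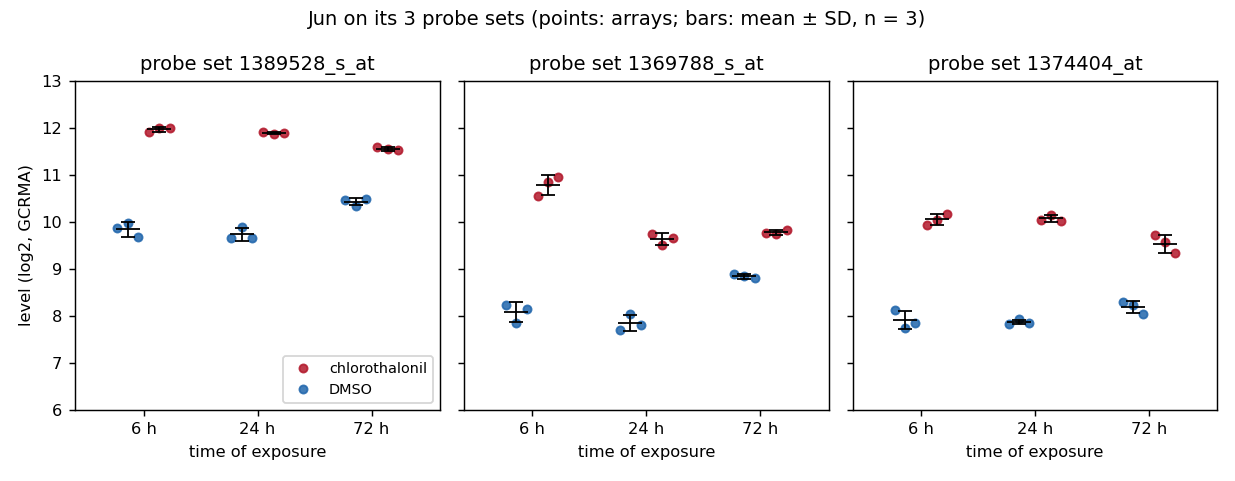
Log2 level of Jun on its 3 probe sets, by time of exposure and treatment (points are arrays; bars give mean ± SD, n = 3). Treated arrays lie above DMSO arrays on each probe set at each time, and only the probe set in the middle panel drops from 10.79 to 9.63 between 6 and 24 h in treated cultures.

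Junb, a Jun subunit that opposes Jun at many promoters, had the smallest differences of the 6 genes at 6 and 24 h and changed with time within both arms. The treated arrays read 9.46, 9.53 and 9.57 at 6 h, 10.28, 10.31 and 10.06 at 24 h, and 8.46, 8.84 and 8.64 at 72 h. The DMSO arrays read 8.10, 7.91 and 8.22 at 6 h, 9.98, 9.79 and 9.62 at 24 h, and 9.21, 9.41 and 9.30 at 72 h. Treated arrays lay above DMSO arrays at 6 and 24 h and below them at 72 h, with no overlap. The difference was 1.44 at 6 h (2.72-fold, adjusted p = 6.02e-08), 0.42 at 24 h (1.34-fold, adjusted p = 0.00352) and -0.66 at 72 h (1.58-fold lower, adjusted p = 0.000114); at 24 h it was -0.53 on the poly-A scale. Junb rose by 1.72 in DMSO cultures between 6 and 24 h (3.29-fold, adjusted p = 2.58e-09) and by 0.70 in treated cultures (adjusted p = 7.82e-05). It was highest in treated cultures at 24 h and lowest in DMSO cultures at 6 h. Of the neighbours in that order, treated cultures at 6 h and DMSO cultures at 72 h did not pass the test (adjusted p = 0.0875).

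Atf3 was higher in treated cultures at every time. Its treated arrays read 12.21, 12.45 and 12.42 at 6 h, 11.62, 11.17 and 11.44 at 24 h, and 9.55, 9.38 and 9.59 at 72 h. Its DMSO arrays read 6.23, 5.78 and 6.38 at 6 h, 5.80, 6.76 and 5.55 at 24 h, and 3.02, 2.99 and 3.09 at 72 h, the last all under log2 4. Every treated array lay above every DMSO array, whatever the time. The difference was 6.23 ± 0.23 (SE) at 6 h (75.1-fold, adjusted p = 3.56e-11) and 5.38 at 24 h (41.5-fold, adjusted p = 5.23e-11), and Atf3 was at least 45.5-fold higher at 72 h (fitted difference 6.47, adjusted p = 1.89e-11). The level fell with time in both arms: by 0.95 from 6 to 24 h and by 1.90 from 24 to 72 h in treated cultures (adjusted p of 0.00268 and 3.17e-06), and from 24 to 72 h at least 4.09-fold in DMSO cultures (adjusted p = 5.08e-08).

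The promoter tables of RefSeq (assembly GRCr8, 250 bases before to 50 after each annotated start) held windows for Fosb, Fosl1 and Junb. The stretches of Fosl1 and Junb that hold the first bases of the ATF and CREB element, TGACG, are printed because Atf3 and related factors bind such elements; this 5-base run stood in 21.2% of the 33469 rat windows, so a match is a description and not a site. Both strands were searched, and the full element TGACGTCA contains the short one on each strand. In Fosl1 (chr1:212183725-212183817, plus strand) it stands on the minus strand at 148 and 84 bases before the start. In Junb (chr19:40080959-40081094, plus strand) it stands 155 bases before the start, with a CCAAT box at 85 (37.5% of windows) and TATAAA at 49 (14.2% of windows). The searched motifs are in capitals. The Fosb window held neither TGACTCA nor TGACG. It lies inside the annotated span of the gene and is not printed, so this says nothing on the Fosb promoter.
Fosl1: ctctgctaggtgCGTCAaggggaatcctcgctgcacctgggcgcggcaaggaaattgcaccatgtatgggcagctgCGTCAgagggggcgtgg
Junb: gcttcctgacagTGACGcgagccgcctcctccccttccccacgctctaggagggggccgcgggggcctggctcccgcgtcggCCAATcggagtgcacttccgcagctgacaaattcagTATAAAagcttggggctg

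The treatment difference changed with time for all 6 genes, as tested by the change of the difference between times in the same fit. From 6 to 24 h it became smaller for Fos (-3.29), Fosb (-1.65), Junb (-1.02) and Atf3 (-0.86), which was 4 of 6 against 23.4% of all genes, and did not pass the test for Jun on its brightest probe set (0.04, 95% interval -0.21 to 0.28) or Fosl1 (1.44, 95% interval 0.06 to 2.81, adjusted p = 0.064). From 24 to 72 h it became smaller for Fos, Fosb, Fosl1, Jun and Junb, by 1.20, 1.34, 3.65, 1.04 and 1.08 in that order (5 of 6, against 29.8% of all genes), and larger for Atf3 by 1.10 (1 of 6, against 27.9%). From 6 to 72 h it became smaller for 5 of 6 genes (21.6% of all genes), with changes from -1.004 for Jun to -4.49 for Fos, whereas Atf3 moved by 0.24 (95% interval -0.46 to 0.95). That value for Atf3 rests on DMSO arrays below log2 4 at 72 h. Its difference there is a bound, at least 45.5-fold, beside 75.1-fold at 6 h, so the sign of its change is not settled. These 3 comparisons share arrays. On the poly-A scale only 2 of the 6 changes from 24 to 72 h passed the test, those of Fosl1 and Atf3, and the change of Jun from 6 to 72 h had an adjusted p of 0.0796 (limma).

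The changes rested on different arms. For Fos from 6 to 24 h the DMSO level moved by 2.62 and the treated level by -0.67, and for Junb by 1.72 and 0.70. For Fosb the DMSO level stayed at background, so the measured change lay in treated cultures. For Fosl1 from 6 to 24 h the DMSO level moved by -1.97, at or near background, and the treated level by -0.53. With all values below 4 set to 4, its DMSO step was -0.43 (adjusted p = 0.298, limma). For Atf3 the larger difference at 72 h came from the DMSO arrays, which dropped below log2 4: with all values below 4 set to 4, its change from 24 to 72 h was 0.13 (adjusted p = 0.749). The smaller difference of Atf3 at 24 h (adjusted p = 0.0351) was also lost under several settings, with an adjusted p between 0.0514 and 0.0923 when 1 of 6 single arrays was left out (replicates 2 and 3 of treated cultures at 6 h and at 24 h, and replicate 2 of DMSO cultures at 6 h and at 24 h) 0.0603 without the filter, and 0.0765 with only the arrays of both times in the fit.

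**Figure D3:**
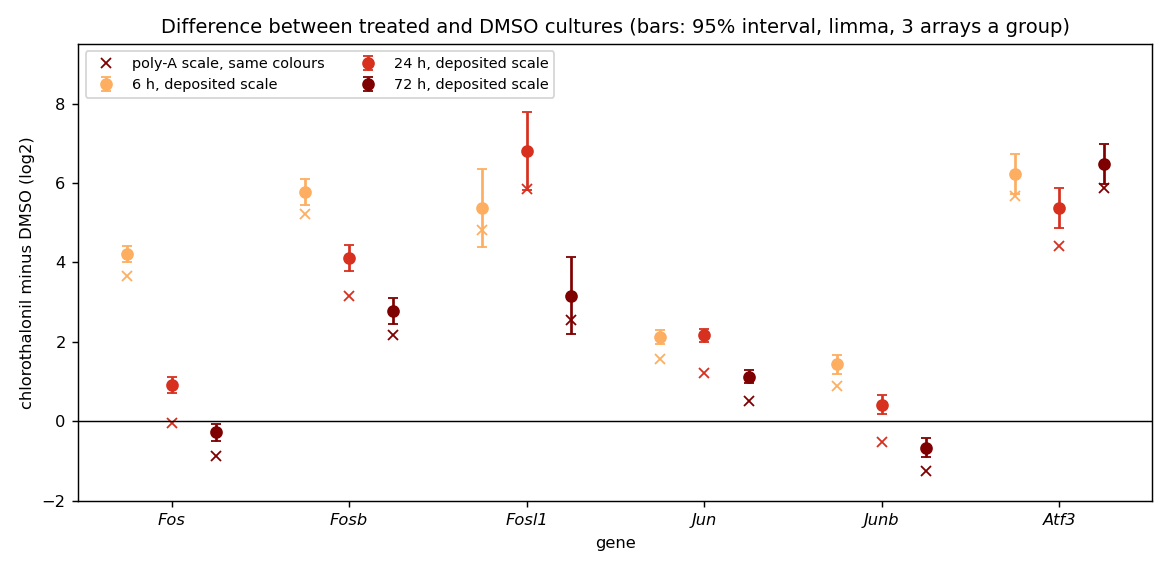
Log2 difference between chlorothalonil and DMSO cultures for each gene at 6, 24 and 72 h (points with 95% intervals from limma, 3 arrays a group), and the same difference with arrays scaled to the poly-A controls (crosses). Fos and Junb step down from 4.21 and 1.44 at 6 h to -0.28 and -0.66 at 72 h, and the crosses of Fos and Junb at 24 h lie below 0. The fitted points of Atf3 lie between 5.38 and 6.47, the one at 72 h resting on DMSO arrays below log2 4.

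Within each arm, the DMSO cultures moved 2 genes up between 6 and 24 h, Fos and Junb (32.9% of all genes rose), and 1 down, Fosl1 (40% fell), from a mean of 4.05 to 2.09; the fall of Fosl1 did not pass with values below 4 set to 4 (adjusted p = 0.298). From 24 to 72 h, Jun rose in DMSO cultures (1 of 6, against 36.3% of all genes), and Junb and Atf3 fell (2 of 6, against 24.3%). In treated cultures Junb rose from 6 to 24 h (1 of 6, against 34.6% of all genes), and Fos, Fosb and Atf3 fell (3 of 6, against 24.9%). From 24 to 72 h all 6 fell in treated cultures (33.3% of all genes fell), by between 0.34 for Jun, on 2 of its 3 probe sets, and 3.67 for Fosl1. On the poly-A scale 4 of these calls were lost: Jun (0.51, adjusted p = 0.286) and Junb (-0.68, 0.11) from 24 to 72 h in DMSO cultures, Junb from 6 to 24 h (0.46, 0.313) and Jun from 24 to 72 h (-0.19, 0.678) in treated ones (limma).

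Over the 18 arrays, Fosb, Fosl1, Jun and Atf3 had similar patterns, with a Pearson r between 0.843 (Jun and Atf3) and 0.938 (Fosb and Jun). Their Spearman values ran from 0.769 (Fosl1 and Jun) to 0.946 (Fosl1 and Atf3). Most DMSO arrays of Fosb and Fosl1 lay at background, so r for these mainly sets treated against DMSO arrays. With the same 4 genes, Fos had r between 0.541 (Fosl1) and 0.719 (Fosb). Junb had r between 0.311 and 0.380 with these 4 genes and 0.786 with Fos. All arrays share the 6 groups, so these values describe the pattern and are given without a test. The genes most like each of the 6, by r over 18 arrays, differed between them. Fos was most like C10h17orf100 (r = 0.924), Zfp36 (0.921), whose protein speeds the decay of AU-rich transcripts, and Smad7 (0.921), an inhibitor of TGF-beta signalling. Fosb was most like the ER co-chaperone gene Dnajb9 (0.979), Errfi1 (0.976), a feedback inhibitor of the EGF receptor, and Hsph1 (0.969), an HSP110 chaperone gene. Fosl1 was most like Hsph1 (0.984), the HSP70 co-chaperone gene Bag3 (0.969) and the proteasome subunit gene Psmb2 (0.968).

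Jun was most like Eps8 (r = 0.957), an EGF receptor substrate that acts on actin, Zc3h8 (0.957) and Rasgrp3 (0.953), an exchange factor for Ras. Junb was most like Gla (0.948), the gene of alpha-galactosidase A, Aurkaip1 (0.934) and Cstpp1 (0.930). Atf3 was most like Hbegf (0.976), a ligand of the EGF receptor, Lyrm1 (0.973) and Epha2 (0.973), an ephrin receptor. Hbegf was higher in treated cultures by 1.64 at 6 h, 1.14 at 24 h and 1.60 at 72 h, and Epha2 by 2.11, 1.86 and 1.77. Hsph1 was higher by 2.78, 3.0 and 1.50, and Errfi1 by 2.21, 1.28 and 1.23. All of these passed the test at all 3 times. On the poly-A scale Hsph1 and Epha2 did so too, whereas Hbegf at 24 h (0.19, adjusted p = 0.568) and Errfi1 at 24 h (0.33, 0.324) and 72 h (0.63, 0.0836) did not (limma). Choice by likeness on the same arrays favours genes that differ with treatment, so these calls are no separate support. Other likeness genes went otherwise: Smad7 read 0.03 at 24 h and -0.04 at 72 h, and Gla read -0.63 at 72 h.

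The partners of the 6 genes and related factors with the same zipper were taken as a list of 22 genes, of which 15 were tested. Of these, 9 rose and 0 fell at 6 h (27.8% and 31.8% of all genes), 11 rose and 2 fell at 24 h (39.1% and 31.1%), and 8 rose and 4 fell at 72 h (37.2% and 27%). Creb5 is among those that rose and passed the filter only through treated arrays; the median log2 difference of the list was 0.53, 0.79 and 0.51, against -0.01, 0.06 and 0.07 over all genes. On the poly-A scale the medians were -0.01, -0.16 and -0.09, against -0.56, -0.89 and -0.53 over all genes. Creb5, a CREB factor that pairs with Jun, was not above background in any DMSO array and was at least 7.43-fold higher at 6 h, at least 2.32-fold at 24 h and at least 18.1-fold at 72 h. Its treated mean was 6.89 ± 0.15, 5.21 ± 0.40 and 8.18 ± 0.32 (SD, n = 3), lowest at 24 h. Maff and Mafk, small Maf proteins that lack an activation domain, were highest over DMSO at 24 h, by 3.17 (9.03-fold) and 2.75 (6.73-fold), with 1.83 and 0.97 at 6 h and 1.86 and 1.06 at 72 h. Ddit3, the CHOP factor of the stress response, was higher by 1.99, 1.98 and 1.50.

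The remaining Fos and Jun subunits are encoded by Fosl2 and Jund. Fosl2, which encodes Fra-2, did not pass the test at any time (0.27, 0.55 and 0.19, adjusted p of 0.539, 0.178 and 0.67), with a DMSO mean of 4.70 ± 0.91 (SD, n = 3) at 24 h. Jund, the subunit that is present in resting cells, read -0.19 at 6 h without passing the test (adjusted p = 0.173), and was higher by 0.42 at 24 h (-0.53 on the poly-A scale) and by 0.98 at 72 h (1.97-fold, adjusted p = 2.96e-06). Its level was between 11.50 and 12.72 in all groups.

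Genes of the MAP kinase cascade and of the factors that act on the promoters of immediate early genes were a list of 36, of which 21 were tested. The same shares of all genes stand beside this and the following lists. Here 4 rose and 11 fell at 6 h, 5 rose and 8 fell at 24 h, and 2 rose and 10 fell at 72 h, with medians of -0.35, -0.09 and -0.15 (-0.90, -1.04 and -0.76 on the poly-A scale). Elk4, a ternary complex factor that binds beside serum response factor on the Fos promoter, was lower by 1.57 at 6 h (2.97-fold, adjusted p = 2.33e-08), and Elk1, of the same family, by 0.79 (adjusted p = 0.000288). Srf itself was higher by 0.44 at 6 h (-0.11 on the poly-A scale) and lower by 0.30 at 24 h. Among the kinases, Map3k4 was lower by 1.51 at 6 h (2.85-fold), Map3k7 by 0.76 and Mapk14, which encodes p38 alpha, by 0.55. Mapk8, which encodes JNK1, was higher by 0.98 at 24 h (1.98-fold, adjusted p = 1.51e-05), with 0.03 on the poly-A scale. Mapk9, which encodes JNK2, fell by 1.53 at that time, where 1 of 3 treated arrays lay above log2 4. Map2k2 was lower by 0.68 at 72 h, and Rps6ka3, an ERK-activated kinase, was lower at all 3 times (1.51-fold, 2.01-fold and 1.47-fold).

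MAP kinase phosphatases switch off the kinases that act on AP-1. Of 10 listed genes 5 were tested; 4 rose at each time (27.8%, 39.1% and 37.2% of all genes rose), and 1 fell at 6 h, Dusp7 (-0.42). Of the 4, Dusp8 passed the filter only through treated arrays and could only rise. The list medians were 1.49, 1.86 and 1.54 (0.94, 0.91 and 0.94 on the poly-A scale), and 1.57 at 24 h with Dusp8 at its bound. Dusp5, a nuclear phosphatase of ERK, was higher by 3.04 at 6 h (8.25-fold), 2.13 at 24 h and 0.89 at 72 h. Dusp6, the cytoplasmic ERK phosphatase, was higher by 1.13, 3.46 (11-fold) and 2.52. Dusp1, an immediate early gene itself, held a difference of 1.49, 1.57 and 1.54, and its treated mean was between 12.75 and 13.04. Dusp8 was not above background in DMSO cultures and was at least 2.93-fold, 2.70-fold and 3.23-fold higher.

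Factors that act on AU-rich transcripts or their decay, in either direction, were a list of 14 with 12 tested. The Fos and Jun messages belong to these transcripts. The list was split: 4 rose and 4 fell at 6 h, 5 rose and 6 fell at 24 h, and 3 rose and 3 fell at 72 h, with medians of -0.07, -0.14 and -0.14 (-0.62, -1.09 and -0.74 on the poly-A scale). Zfp36, which encodes tristetraprolin, was higher by 1.96 at 6 h (3.89-fold, adjusted p = 1.5e-07) and by 1.03 at 24 h (0.08 on the poly-A scale), and read -0.07 at 72 h (adjusted p = 0.742). Its relative Zfp36l1 was higher by 0.89 at 6 h and lower by 0.68 and 0.72 at 24 and 72 h, and Zfp36l2 was higher by 1.32 at 24 h. Cnot6, a deadenylase subunit, was lower by 1.04 at 6 h (2.06-fold), and Tnpo1, a nuclear import receptor, by 0.66. Hnrnpd, which encodes AUF1, was higher by 0.34 and 0.37 at 6 and 24 h, where the poly-A scale gave -0.21 and -0.57, and lower by 0.47 at 72 h.

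Of 11 ubiquitin ligases and kinases that act on Jun and Fos proteins, 7 were tested; 2 rose and 0 fell at 6 h, 3 rose and 1 fell at 24 h, and 1 rose and 0 fell at 72 h, where 27.8%, 39.1% and 37.2% of all genes rose. Their medians were -0.06, 0.02 and 0.09 (-0.60, -0.92 and -0.51 on the poly-A scale). The genes with large differences were pseudokinases that bring targets to the ligase COP1. Trib1 was higher by 4.19 at 6 h (adjusted p = 3.06e-08), where 1 of 3 DMSO arrays lay above log2 4, at least 7.07-fold higher at 24 h, and not above background in either arm at 72 h. Trib3 was higher by 0.96 and 1.38 at 6 and 24 h and by 4.11 at 72 h (17.2-fold, adjusted p = 7.38e-11), where its DMSO mean was 4.88. The ligase gene Fbxw7 and the kinase gene Gsk3b did not pass the test at any time, and Csnk2a1 was lower by 0.30 at 24 h.

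Textbook AP-1 target genes were a list of 29, of which 20 were tested. At 6 h 15 rose and 0 fell, at 24 h 13 rose and 4 fell, and at 72 h 15 rose and 1 fell, where 27.8%, 39.1% and 37.2% of all genes rose. Of the 20, 5 had no DMSO array above log2 4 and could only rise: Ccl2, Ereg, Mmp10, Mmp12 and Sprr1a. Of the other 15 genes, 12 rose and 0 fell at 6 h, 8 rose and 4 fell at 24 h, and 11 rose and 1 fell at 72 h. The list medians were 0.57, 0.77 and 0.70, or 0.37, 0.67 and 0.49 with genes at background at their bound (0.02, -0.17 and 0.10 for the former on the poly-A scale, against -0.56, -0.89 and -0.53 over all genes). The 15 that rose at 6 h include Sprr1a, whose arrays were all at background then. Hmox1, the heme oxygenase gene, which also answers to NRF2, was higher by 4.20 at 6 h (18.4-fold) and 5.51 at 24 h (45.5-fold) and at least 32.9-fold at 72 h. Ccl2, a chemokine gene, was not above background in any DMSO array; it was at least 16.0-fold higher at 6 h and at least 12.4-fold at 24 h, and at background in both arms at 72 h. Cd44, an adhesion receptor gene, went the other way in time, with 0.85, 1.77 and 3.90 (15-fold at 72 h), where its DMSO mean fell from 9.55 through 8.36 to 5.96 and its treated mean from 10.40 through 10.13 to 9.86.

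The element TGACTCA, searched on both strands (its complement reads TGAGTCA), stood in 8 of 23 promoter windows of the target list, and in 4.63% of all 33469 rat windows of 300 bases. The list was made of textbook AP-1 targets, so its larger share can come with that choice and says nothing about these arrays. The windows with it belong to Mmp3, Mmp10, Mmp12, Mmp13, Plaur, Sprr1a, Il11 and Mt2A; Mmp3, Mmp13 and Il11 did not pass the filter on low values. The 5 tested ones are printed below, because the element is where AP-1 dimers bind, together with Areg, which holds the CREB element TGACGTCA (1.83% of windows). The 5 are those whose genes passed the filter, and Mmp10, Plaur, Areg and Mt2A stand outside the rule for named genes. In capitals are TGACTCA or TGAGTCA, TGACGTCA and, where present, TATAAA. The stretches lie before the annotated start on GRCr8: Mmp10 at chr8:12974634-12974693, plus strand, Mmp12 at chr8:12866553-12866630, plus strand, Plaur at chr1:89181268-89181327, plus strand, Sprr1a at chr2:180752654-180752784, minus strand, Mt2A at chr19:10838898-10838957, minus strand and Areg at chr14:17265685-17265744, minus strand.
Mmp10: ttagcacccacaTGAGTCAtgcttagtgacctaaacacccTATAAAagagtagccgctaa
Mmp12: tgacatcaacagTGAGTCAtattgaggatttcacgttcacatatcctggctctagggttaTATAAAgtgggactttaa
Plaur: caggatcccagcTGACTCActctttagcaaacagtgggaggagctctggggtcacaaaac
Sprr1a: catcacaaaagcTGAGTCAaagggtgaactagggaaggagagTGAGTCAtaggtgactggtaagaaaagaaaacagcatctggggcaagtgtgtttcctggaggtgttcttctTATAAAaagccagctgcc
Mt2A: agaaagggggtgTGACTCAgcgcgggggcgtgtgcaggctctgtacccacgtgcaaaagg
Areg: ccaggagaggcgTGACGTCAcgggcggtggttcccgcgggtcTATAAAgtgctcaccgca

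The element begins 61 bases before the start in Mmp10, 87 in Mmp12, 83 in Plaur and 237 in Mt2A, and Sprr1a has it at 147 and 117. Mmp12, which encodes macrophage metalloelastase, was at background in both arms at 6 h and at least 9.29-fold higher in treated cultures at 24 h and at least 6.41-fold at 72 h. Mmp10, which encodes stromelysin-2, was also at background in both arms at 6 h and at least 5.27-fold and 1.62-fold higher at 24 and 72 h. Sprr1a, a gene of the cornified envelope, was at least 49.9-fold higher at 24 h and at least 7.76-fold at 72 h. For these 3 genes every DMSO array was at or below log2 4, so that they passed the filter only through treated arrays. The treated mean was highest at 24 h (7.22, 6.40 and 9.64 for Mmp12, Mmp10 and Sprr1a).

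Plaur, which encodes the urokinase receptor, was expressed in both arms and was higher by 1.39 at 6 h (2.63-fold), 2.09 at 24 h (4.25-fold) and 0.84 at 72 h (1.79-fold). Mt2A, a metallothionein gene, lay near log2 4 in all groups and did not pass the test at any time (adjusted p of 0.318, 0.648 and 0.742). Areg, which encodes the EGF receptor ligand amphiregulin, was higher by 0.74, 0.93 and 1.08 at 6, 24 and 72 h, with -0.02 at 24 h on the poly-A scale; its element begins 91 bases before the start.

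**Figure D4:**
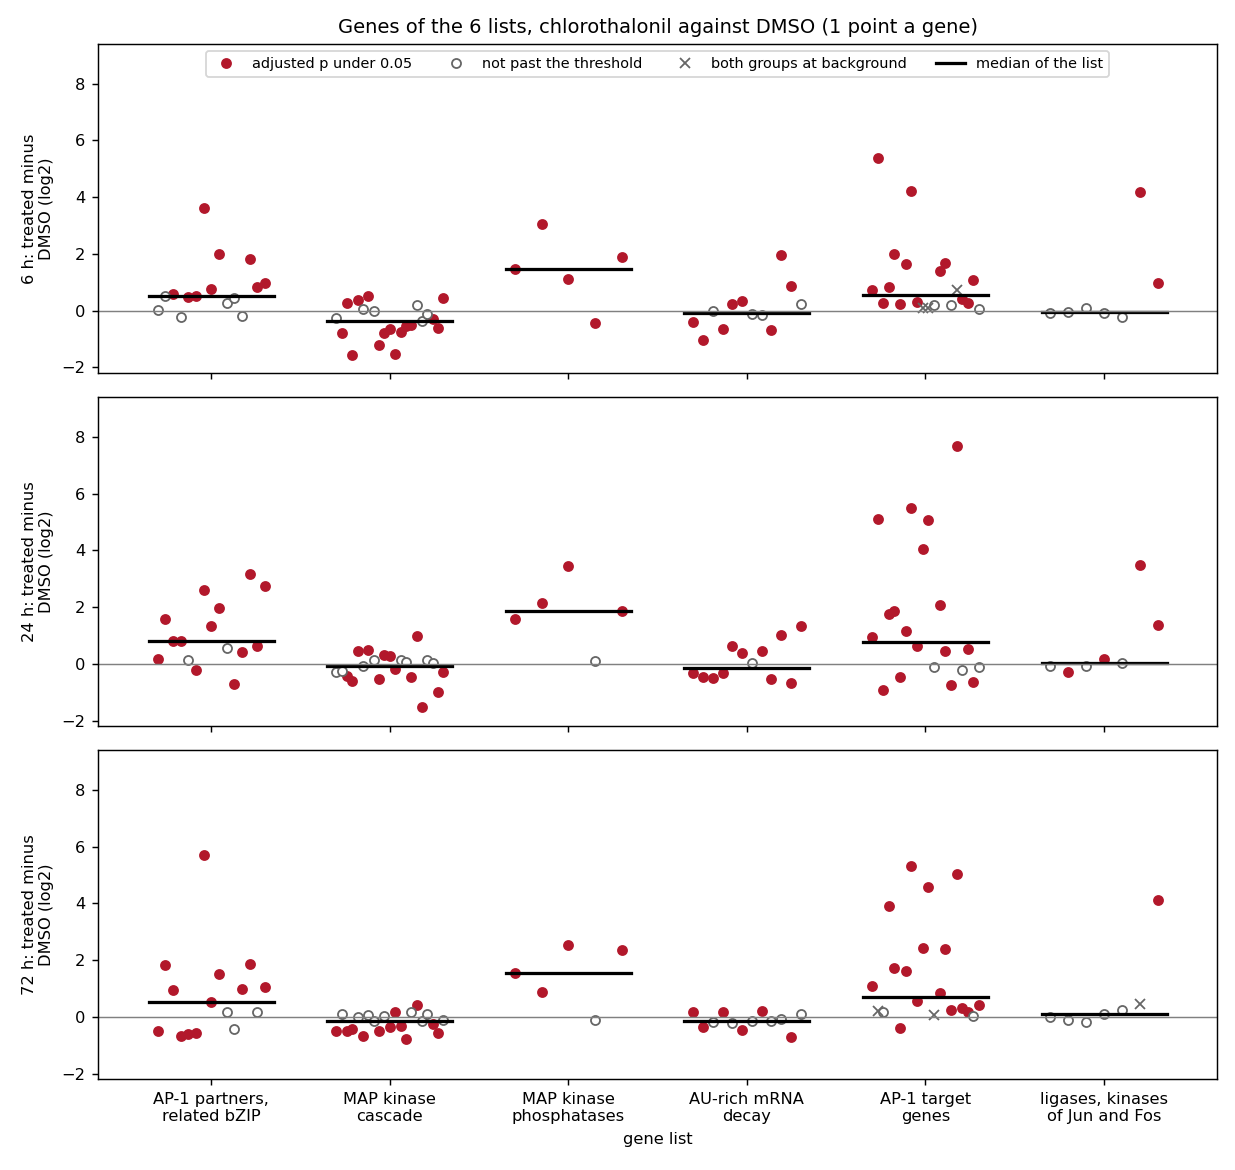
Log2 difference between chlorothalonil and DMSO cultures for each tested gene of the 6 lists, at 6, 24 and 72 h from top to bottom (filled points passed an adjusted p of 0.05, open points did not, crosses had both groups at background, and lines give list medians). The medians of the MAP kinase phosphatases are 1.49, 1.86 and 1.54 (1.57 at 24 h with Dusp8 at its bound), those of the MAP kinase cascade lie below 0 at each time, and the highest single points at 24 h are AP-1 target genes.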

How the data were processed

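Values came from 18 rat Affymetrix arrays, 31099 probe sets each. The authors deposited log2 values; GCRMA is the tool that the submitters' processing notes name, and its version is not given in the sources used here; GCRMA pulls dim probes to a common low level, so differences near log2 4 are bounds. Probe sets were named through the platform annotation (20832 with 1 symbol, 436 with several, 9831 with none), with symbols updated through Entrez identifiers. The brightest probe set per gene was kept, and genes above log2 4 on at least 3 arrays were tested (9149). Group means of all 6 groups were fitted with limma 3.58.1 in R 4.3.3 (12 residual and 2.76 prior degrees of freedom), 2-sided, with the Benjamini-Hochberg adjustment over all genes. The step was tested on simulated data. A group with all arrays at or below log2 4 was taken as at background, and the fold then is the brighter mean against log2 4. The number of arrays limits the precision.

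The members and lists were chosen with earlier results of these data known. Named genes were the 6 genes, for each the 3 most correlated genes with a curated symbol, of each list the 3 genes with the smallest p at each time, and Fosl2, Jund, Dusp1, Srf, Elk1 and Zfp36; others are named where a count or a promoter window singles them out. Replicates of a group correlated at 0.992 to 0.998. Whether equal replicate numbers pair treated and DMSO arrays was not settled, and the main fit did not pair them. Of 9 such pairs, 3 had a correlation of deviations over 0.1, and the range was -0.04 to 0.305. Alternatives covered normalisation, filter, floor, weights, single arrays and probe sets. Promoter windows came from RefSeq (GRCr8). No promoter of Fos, Jun and Atf3 was used here.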

Additional observations from a re-analysis of the deposited data

Results flagged for a closer look

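The treatment difference changed between times by a test of the change itself (limma, adjusted over all genes) for each of the 6 genes. For Fos it changed by -3.29 from 6 to 24 h, -1.20 from 24 to 72 h and -4.49 from 6 to 72 h. For Fosb the changes were -1.65, -1.34 and -2.99, and for Junb they were -1.02, -1.08 and -2.10. Fosl1 changed by -3.65 from 24 to 72 h and by -2.21 from 6 to 72 h, and Jun by -1.04 and -1.004. Atf3 changed by -0.86 from 6 to 24 h and by 1.10 from 24 to 72 h; the first call ended with a replicate block (adjusted p = 0.0704) or only the arrays compared (0.0765), and the second change was 0.13 (0.749) with values below log2 4 set to 4. On the poly-A scale the changes of Fos, Fosb, Jun and Junb from 24 to 72 h missed the threshold. The 3 intervals share arrays, so these are not separate observations. No group has over 3 arrays, so no array was set aside as outlying. Single arrays were left out in turn, and arrays were weighted, among the alternatives.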

How the results depend on the processing

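The 18 treatment differences of the 6 genes were computed 525 times under the alternatives, including values of each fit with 1 array left out. Of these, 518 kept their direction and call, 4 lost the call and 3 turned sign, all 3 on the poly-A scale. Many of the 525 could not turn sign. Leaving out an array of another time, fitting only the times compared, the trended prior and the replicate block leave the difference itself as it was. The count of 518 is therefore no measure of robustness. Scaled to poly-A controls, Fos at 24 h was -0.030 and Junb at 24 h -0.53; with the DMSO array of the dimmest controls also left out, an alternative chosen after seeing the data, they were 0.33 and -0.069. On the poly-A scale 2 of 6 genes passed the change from 24 to 72 h in place of 6, and 1 in place of 3 passed DMSO at 72 against 24 h. Leaving out single arrays gave 3 to 5 genes in DMSO cultures at 24 against 6 h, the 5 without DMSO replicate 2 at 24 h, and 3 to 5 for the change from 6 to 24 h. The change of Fosl1 from 6 to 24 h (1.44) passed with centred arrays (1.53), array weights (1.69), a trended prior or without DMSO replicate 2 at 6 h (1.98). It rests on DMSO levels at or near background. With values below log2 4 set to 4, the DMSO step of Fosl1 was -0.43, beside -0.53 in treated cultures. On the second Jun probe set the treated step from 24 to 72 h was 0.15 and the change from 6 to 24 h passed (-0.92). Whether arrays of the same replicate number belong together was not settled. The fit with a replicate block gave 6, 6 and 6 genes called at 6, 24 and 72 h. It gave 3 in place of 4 for the change from 6 to 24 h, where Atf3 missed the threshold (adjusted p = 0.0704, limma), 1 of 36 values. The poly-A scale also turned 14 other named genes: at 6 h Cstpp1 (-0.15), Hnrnpd (-0.21) and Srf (-0.11); at 24 h Areg (-0.016), Aurkaip1 (-0.80), C10h17orf100 (-0.29), Hnrnpd (-0.57), Jund (-0.53), Psmb2 (-0.16) and Zc3h8 (-0.039); at 72 h Bag3 (-0.0083), Eps8 (-0.10), Map3k4 (-0.42), Mapk8 (-0.20), Psmb2 (-0.25), Rasgrp3 (-0.16) and Zc3h8 (-0.25). The cause was not tested. Signals at background limit Fosb, Fosl1 at 24 and 72 h and Atf3 at 72 h to bounds.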
